A study of Homo sapiens with 18 samples.

Results

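Transcript levels of 10 genes encoding subunits of RNA polymerase II were described in 18 RNA libraries. The labels name 2 human cell lines, XG1 and AMO1, of multiple myeloma, in which malignant plasma cells grow in the bone marrow. The genes were chosen by name (POLR2A, POLR2B, POLR2C, POLR2D, POLR2E, POLR2F, POLR2G, POLR2H, POLR2I and POLR2K), and all 10 were found among the 26249 genes of the tables and passed the filter on low values. For 6 h both lines received 1000 nM or 100 nM of the compound that the labels' treatment protocol calls YKL (its full code name is on the axis of the plot of levels by library), which binds the kinase CDK7 covalently and inhibits it, or the solvent DMSO, which gave 6 groups of 3 libraries. No other genotype, agent or time distinguished the groups. The series title calls the lines resistant without naming the drug. Whether replicates came from separate cultures is not in the labels, so a p-value here measures a spread between libraries that may be technical.

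RNA polymerase II transcribes the protein-coding genes. Its largest subunit, encoded by POLR2A, holds the active site together with the POLR2B subunit and carries the long repeated C-terminal domain (CTD) that CDK7, the kinase of the initiation factor TFIIH, phosphorylates as transcription begins. The subunits encoded by POLR2E, POLR2F, POLR2H and POLR2K also belong to RNA polymerases I and III, which make ribosomal RNA and small RNAs such as transfer RNA. POLR2C encodes a subunit of the assembly platform, POLR2D and POLR2G encode the stalk that contacts the emerging RNA, and POLR2I encodes a subunit that in yeast acts in start site choice and transcript fidelity.

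FPKM by definition divides the fragments of a gene by transcript length and by library size. The libraries read 3′ ends, whose number does not depend on transcript length, so FPKM of different genes are not compared here as amounts, and only levels of 1 gene between libraries are. Changes were computed as differences of log2(FPKM + 1) and carry a standard error (SE), and adjusted p values come from limma with Benjamini-Hochberg adjustment over all 12204 genes tested, with a threshold of 0.05. A gene past that threshold is said to have risen, fallen or been called. The tables hold no read counts. The depth is therefore unknown, and counting error could not be estimated. Between 9284 and 10571 genes per library reached 1 FPKM. Levels summed over all genes were 741443 to 957143 FPKM in libraries labelled XG1 and 1462898 to 2072842 FPKM in AMO1. Spike-in RNAs, which are added synthetic transcripts, had a median deviation of only -0.078 to 0.073 log2 per library. Whether the deposited values had been scaled to the spike-ins was not tested. The line labels were checked against markers. The libraries labelled XG1 had a summed level of 8 plasma cell markers of 43.7 to 75.4 FPKM, against 4674 to 7001 FPKM in AMO1, and only 1 of them reached 10 FPKM in every XG1 library while 3 stayed under 1 FPKM. The summed level of 8 erythroid markers was 2603 to 3100 FPKM in libraries labelled XG1, against 3.04 to 20.5 FPKM in AMO1. The libraries labelled XG1 therefore went against their label, and XG1 below means these libraries. Over all tested genes, 807 (321 higher, 486 lower) and 2152 (232 higher, 1920 lower) were called at 100 and 1000 nM in XG1, and 268 (53 higher, 215 lower) and 2091 (217 higher, 1874 lower) in AMO1. Centring each library on its median made the splits 969 higher and 969 lower at 1000 nM in XG1, 289 and 188 at 100 nM in AMO1, and 1012 and 815 at 1000 nM in AMO1. Quantile normalization made them 1174 and 1209, 205 and 254, and 861 and 1011 in the same comparisons. The median change of all tested genes at 1000 nM was -0.19 in XG1 and -0.18 in AMO1, against 0.07 and 0.11 after centring. Centring and quantile normalization remove such a shared shift by construction. Scaling to the spike-ins kept the excess of falls at 1000 nM, with 232 higher and 1760 lower in XG1 and 211 and 1906 in AMO1. The medians were then -0.18 and -0.19, but the spike-ins already deviated little between libraries. Replicate 3 of AMO1 in DMSO was the lowest library of its group for 10 of 10 subunit genes and for 71% of all genes tested. Changes of called subunit genes against DMSO in AMO1 are therefore also given without it. Replicate 2 of XG1 with 1000 nM was the lowest of its group for 69.2% of genes, and replicate 2 of AMO1 with 100 nM for 66.4%, each for 6 of the 10 subunit genes. Without the XG1 library the 2152 calls at 1000 nM became 1200 and the median change of all genes became -0.096. Without the AMO1 library treated with 100 nM the 268 calls became 101 and the median, -0.087, became -0.025, and without replicate 3 of DMSO they became 980 and -0.18. The subunit genes called against DMSO at these doses numbered 2 in XG1 at 1000 nM without its library, and 1 in AMO1 at 100 nM without either. Replicate 3 of XG1 in DMSO was the lowest of its group for 8 of the 10 subunit genes and 54.2% of genes tested. Without it the 807 calls at 100 nM in XG1 became 529 and the median change, -0.011, became -0.057, with 2 subunit genes called.

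The sequences upstream of POLR2A and POLR2H are shown because these were the 2 genes called in both lines. RefSeq promoter windows of GRCh38.p14 matched 7 of the 10 genes in 9 windows. POLR2G, POLR2I and POLR2K had none in the table used. Each sequence below is the 250 bases before an annotated start, on the plus strand. Capitals mark TATAA, the GC box GGGCGG, the ETS core CGGAAG and the NRF1 core (GCGC and TGCGC with 1 base of any kind between them), searched on both strands, so that a GC box on the other strand reads CCGCCC. The POLR2A window lies at chr17:7484116-7484365. The upstream POLR2H window lies at chr3:184361460-184361709, and the downstream window at chr3:184363111-184363360.

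POLR2A: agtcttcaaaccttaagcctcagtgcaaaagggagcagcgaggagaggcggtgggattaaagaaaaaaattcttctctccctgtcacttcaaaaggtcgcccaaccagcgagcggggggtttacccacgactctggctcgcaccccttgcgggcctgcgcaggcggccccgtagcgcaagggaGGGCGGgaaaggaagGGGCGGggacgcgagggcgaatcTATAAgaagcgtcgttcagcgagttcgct
POLR2H, upstream start: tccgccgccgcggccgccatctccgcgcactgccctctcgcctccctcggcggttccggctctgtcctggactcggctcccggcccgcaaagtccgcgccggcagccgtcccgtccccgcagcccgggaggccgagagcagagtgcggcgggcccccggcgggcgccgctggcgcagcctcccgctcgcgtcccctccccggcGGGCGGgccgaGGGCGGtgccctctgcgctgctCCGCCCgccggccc
POLR2H, downstream start: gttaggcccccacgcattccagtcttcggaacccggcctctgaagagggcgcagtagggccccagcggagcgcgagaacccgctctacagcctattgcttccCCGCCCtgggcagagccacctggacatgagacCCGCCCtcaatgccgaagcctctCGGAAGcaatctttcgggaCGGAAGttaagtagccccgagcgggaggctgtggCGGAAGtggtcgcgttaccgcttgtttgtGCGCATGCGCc

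The POLR2A window held TATAA at position -29, counted from the first base of the motif to the start, and GC boxes at -67 and -52. It was the only 1 of the 9 windows with TATAA, which 18.9% of 35116 RefSeq windows of the same length held. The upstream POLR2H window held 3 GC boxes. The downstream window held 2 GC boxes, ETS cores at -93, -74 and -40, and an NRF1 core at -11 that reads on both strands. Of the 9 windows, 5 held an ETS core (16.5% of all windows did), 5 an NRF1 core (5.07%) and 6 a GC box (42.6%), with POLR2F and POLR2H giving 2 windows each. The 2 POLR2F windows overlap for most of their length and share an NRF1 core, so they are not separate cases. Counted by gene, 5 of the 7 genes held an ETS core, 4 an NRF1 core and 5 a GC box. The CCAAT box (CCAAT, 32% of all windows) and the E-box (CACGTG, 6.34%) were found in 0 of the 9 windows. These matches describe letters and are not evidence of a bound factor.

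The first comparisons asked how subunit transcripts changed with YKL in each line. POLR2A rose at both doses in both lines, POLR2H fell at both doses in XG1 and at 1000 nM in AMO1, and POLR2B fell at 1000 nM in AMO1. In XG1, 2 of the 10 genes were called at 100 nM, beside 6.61% of all genes tested, and 2 at 1000 nM, beside 17.6%. In AMO1, 1 was called at 100 nM, beside 2.2% of all genes (0.434% higher and 1.76% lower), and 3 at 1000 nM, beside 17.1%. Treated and DMSO libraries did not overlap in level for 4 of the 10 genes at 100 nM in XG1 (27.4% of all genes) and for 3 at 1000 nM (32.2%). In AMO1 they did not overlap for 2 genes at 100 nM (18.8%) and 4 at 1000 nM (35.6%). The median change of the 10 genes was -0.077 at 100 nM and -0.17 at 1000 nM in XG1, beside -0.011 and -0.19 over all genes tested. In AMO1 the medians were -0.029 and -0.15, beside -0.087 and -0.18.

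POLR2A was at 36.7, 40.1 and 36.1 FPKM in the XG1 DMSO libraries, at 77.9, 64.9 and 70.9 FPKM with 100 nM and at 70.6, 72.3 and 64.8 FPKM with 1000 nM. Every treated library lay above every DMSO library, and the libraries of the 2 doses overlapped. Its log2 change was 0.90 ± 0.18 (SE, limma adjusted p = 0.00392) at 100 nM, a fold of 1.87, and 0.86 ± 0.18 (limma adjusted p = 0.00228) at 1000 nM, a fold of 1.82. Rises were less common than falls, with 2.63% of all genes called higher at 100 nM and 1.9% at 1000 nM.

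In AMO1, POLR2A was at 71.5, 64.0 and 41.1 FPKM in DMSO, at 203, 151 and 188 FPKM with 100 nM, and at 149.8, 183 and 193 FPKM with 1000 nM. The groups again did not overlap, the lowest treated library standing above 149 FPKM and the highest DMSO library at 71.5 FPKM. The log2 change was 1.63 ± 0.18 (limma adjusted p = 2.41e-05) at 100 nM and 1.59 ± 0.18 (limma adjusted p = 8.58e-06) at 1000 nM, folds of 3.09 and 3.01. Higher calls made up 0.434% of all genes at 100 nM and 1.78% at 1000 nM. Ranked among all tested genes by signed change, POLR2A stood at percentile 98.1 and 98.5 in XG1 and at 99.6 at both doses in AMO1. Without replicate 3 of AMO1 in DMSO the changes were 1.39 and 1.35, and both were called. With only the 2 compared groups in the fit, the AMO1 call at 100 nM was lost (limma adjusted p = 0.0752), in a fit that called 6 of all genes.

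**Figure D1:**
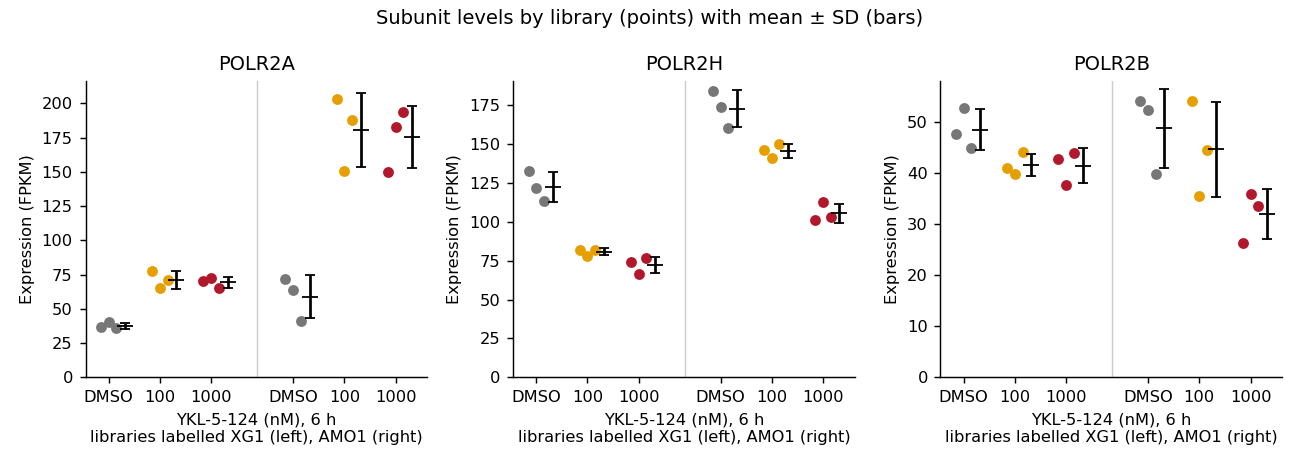
Levels of POLR2A, POLR2H and POLR2B in FPKM (vertical axes) by library, for DMSO, 100 nM and 1000 nM in XG1 on the left and AMO1 on the right of each panel. Points are libraries, and bars are the mean ± SD of 3 libraries. The treated POLR2A libraries lie above the DMSO libraries of their line, and the treated POLR2H libraries lie below them.

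POLR2B encodes the second largest subunit, which forms the active centre with that of POLR2A. In AMO1 it was at 26.4, 36.0 and 33.6 FPKM with 1000 nM, against 54.1, 52.4 and 39.9 FPKM in DMSO. The groups did not overlap, although replicate 3 of DMSO came within 4 FPKM of the highest treated library. The log2 change was -0.59 ± 0.17 (limma adjusted p = 0.0186). Of all genes, 15.4% were called lower in this comparison. The call was lost after median centring (-0.30, limma adjusted p = 0.167) and quantile normalization (-0.33, 0.0747), with only the compared groups in the fit (0.08), with a replicate block (0.0536), and without replicate 1 (0.0845) or 2 (0.0797) of DMSO or replicate 1 of 1000 nM (0.114). The call was kept without replicate 3 of DMSO, with a change of -0.73 (limma adjusted p = 0.00327). POLR2B was not called at 100 nM in AMO1 (-0.13 ± 0.17) or in XG1 (-0.21 ± 0.17 at 100 nM and -0.22 ± 0.17 at 1000 nM). In the XG1 libraries it was nonetheless lower than in every DMSO library at both doses, at 41.0, 39.8 and 44.1 FPKM with 100 nM and 42.8, 37.7 and 44.0 FPKM with 1000 nM, against 47.6, 52.9 and 44.9 FPKM in DMSO. Of all genes tested in XG1, 16.1% were separated in this way at 100 nM and 28% at 1000 nM.

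Of the 4 subunits shared with RNA polymerases I and III, POLR2H was the 1 that was called. In XG1 it was at 133, 122 and 113 FPKM in DMSO, at 82.1, 78.1 and 82.0 FPKM with 100 nM and at 74.3, 66.4 and 76.4 FPKM with 1000 nM. All treated libraries lay below all DMSO libraries, and the 1000 nM libraries also lay below the 100 nM libraries. The log2 changes were -0.59 ± 0.12 (limma adjusted p = 0.00481) at 100 nM and -0.75 ± 0.12 (limma adjusted p = 3e-04) at 1000 nM. After median centring the change at 1000 nM was -0.49 (limma adjusted p = 0.0104). Lower calls made up 3.98% of all genes at 100 nM and 15.7% at 1000 nM.

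In AMO1, POLR2H was at 184, 174 and 160.1 FPKM in DMSO, at 146, 141 and 149.8 FPKM with 100 nM and at 101, 113 and 103 FPKM with 1000 nM. The 3 groups did not overlap with each other. The change at 1000 nM was -0.70 ± 0.12 (limma adjusted p = 0.000545), a level 0.614 times that of DMSO. After median centring it was -0.41 and still called (limma adjusted p = 0.0299). The change at 100 nM was -0.24 ± 0.12 and was not called (limma adjusted p = 0.345, unadjusted p = 0.0555), and it was -0.065 after centring. Without replicate 3 of DMSO the changes were -0.76, called, and -0.29, not called. POLR2H fell in all 27 other settings in each of its 3 called comparisons, though many of these alter only the p-value and cannot move the change.

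The other shared subunits were not called at either dose in either line. POLR2E changed by -0.15 ± 0.16 to 0.13 ± 0.16 and POLR2F by -0.14 ± 0.14 to 0.08 ± 0.14 over the 4 comparisons with DMSO. POLR2K, a small zinc-binding subunit, had the widest spread between libraries of these genes. It was at 74.7, 98.2 and 96.6 FPKM with 100 nM and 60.4, 42.6 and 77.5 FPKM with 1000 nM in XG1, against 77.9, 69.6 and 58.8 FPKM in DMSO, and both treated groups overlapped the DMSO group. Its changes in XG1 were 0.38 ± 0.22 and -0.22 ± 0.22, and in AMO1 -0.26 ± 0.22 and -0.36 ± 0.22. The difference at 100 nM in XG1 was called after quantile normalization (0.55, limma adjusted p = 0.0421) and in none of the other settings.

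The remaining 4 subunits, of the assembly platform (POLR2C), the stalk (POLR2D and POLR2G) and the start site subunit POLR2I, were called in 0 of the 16 tests against DMSO in limma, and 0 of the 16 had an unadjusted p under 0.05. POLR2C changed by -0.25 ± 0.17 to -0.10 ± 0.17. POLR2D, at 6.58 to 23.3 FPKM the gene measured with the widest SE after POLR2K, changed by -0.30 ± 0.20 to -0.16 ± 0.20. POLR2G changed by -0.20 ± 0.16 to 0.20 ± 0.16, and in AMO1 at 1000 nM it was called lower without replicate 3 of DMSO (-0.44, limma adjusted p = 0.006). POLR2I, at 119 to 220 FPKM in all 18 libraries, changed by -0.0013 ± 0.14 to 0.22 ± 0.14. The 95% intervals of these changes at 1000 nM ran from -0.73 to 0.42.

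**Figure D2:**
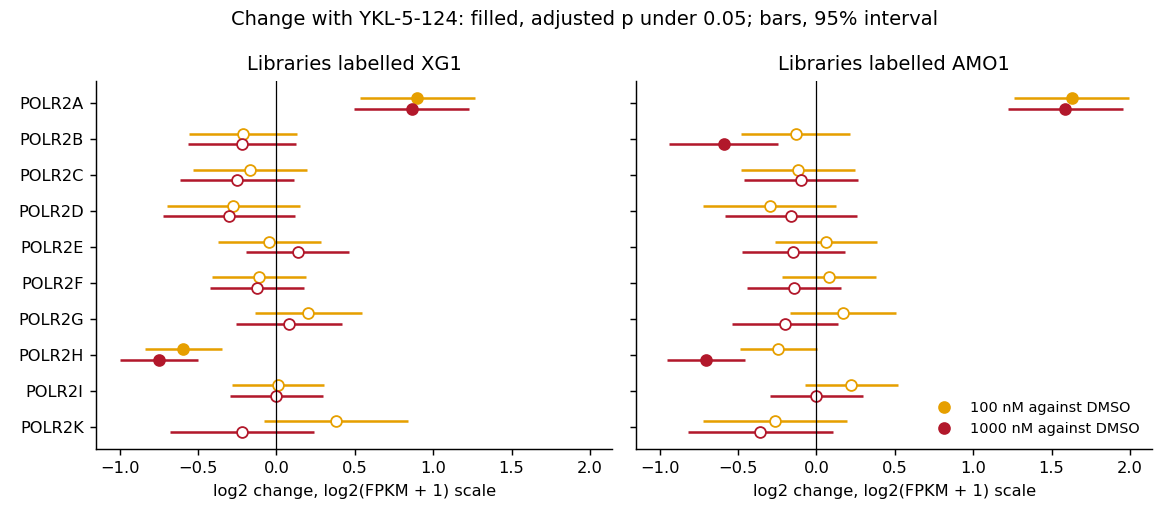
Log2 change of each subunit gene against DMSO on the log2(FPKM + 1) scale (horizontal axes), at 100 nM and 1000 nM, in XG1 (left) and AMO1 (right). Points are limma estimates, filled where the adjusted p was under 0.05, and bars are 95% intervals. POLR2A stands to the right at both doses in both lines and POLR2H to the left.

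The level of POLR2A relative to its partners was described in each library as its log2(FPKM + 1) minus the mean of the other 9 genes. In XG1 this difference was -1.04, -0.87 and -0.87 in DMSO, 0.21, -0.10 and 0.07 with 100 nM, and 0.13, 0.31 and -0.09 with 1000 nM. In AMO1 it was -0.45, -0.61 and -0.82 in DMSO, 1.24, 0.92 and 1.02 with 100 nM, and 1.10, 1.27 and 1.32 with 1000 nM. The measure cancels any shift that all genes of a library share, and the treated and DMSO libraries stayed apart in both lines. Its zero point depends on the lengths used for FPKM and has no meaning of its own.

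**Figure D3:**
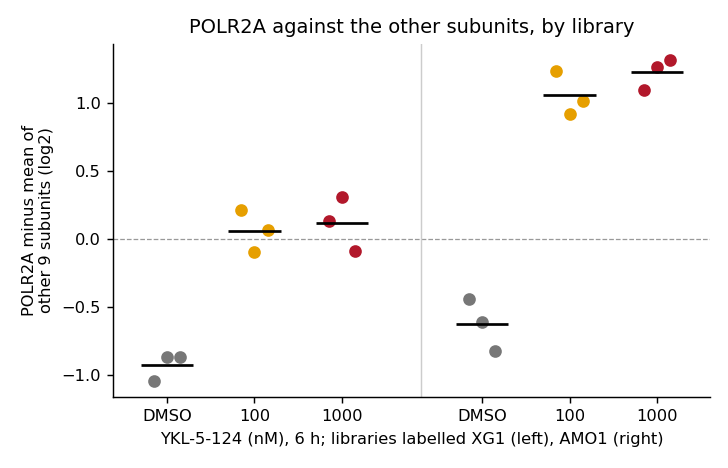
Log2(FPKM + 1) of POLR2A minus the mean of the other 9 subunit genes (vertical axis) in each library, by line and dose. Points are libraries and lines are group means. DMSO libraries lie between -1.04 and -0.45, and treated libraries between -0.10 and 1.32.

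The next comparisons asked whether 1000 nM differed from 100 nM. None of the 10 genes was called in either line, beside 0.139% of all genes in XG1 and 0.18% in AMO1. At an unadjusted p under 0.05 there were 1 in XG1 and 3 in AMO1. POLR2K had a log2 difference of -0.60 ± 0.22 in XG1 (unadjusted p = 0.0131, limma adjusted p = 0.196). In AMO1 the differences were -0.46 ± 0.17 for POLR2B, -0.37 ± 0.16 for POLR2G and -0.46 ± 0.12 for POLR2H (limma adjusted p = 0.299, 0.42 and 0.138). The libraries of the 2 doses did not overlap for 1 gene in XG1 (17.5% of all genes) and 3 in AMO1 (22.2%), and POLR2H was among them in both lines. Without replicate 3 of AMO1 in DMSO, which only alters the shared spread here, its difference was called (limma adjusted p = 0.0252). POLR2A differed by -0.037 ± 0.18 in XG1 and -0.039 ± 0.18 in AMO1, with 95% intervals of -0.40 to 0.33 and -0.41 to 0.33.

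Whether the lines responded differently was tested as the change in XG1 minus that in AMO1. None of the 10 genes was called at 100 nM, beside 0.156% of all genes, or at 1000 nM, beside 0.68%, and 1 at each dose had an unadjusted p under 0.05. That gene was POLR2A, whose log2 change in XG1 minus that in AMO1 was -0.73 ± 0.25 at both doses (unadjusted p = 0.0083 and 0.00843, limma adjusted p = 0.314 and 0.231). Its 95% intervals were -1.25 to -0.21 and -1.24 to -0.21. Both doses share the DMSO libraries, so the 2 values are not independent. Without replicate 3 of AMO1 in DMSO the difference was -0.49 at both doses, not called (limma adjusted p = 0.287 and 0.244). At 100 nM it was -0.85 without replicate 2 of AMO1 with 100 nM, also not called (limma adjusted p = 0.345).

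In DMSO, 9 of the 10 genes differed between XG1 and AMO1, where 62.7% of all genes were called. The libraries of the lines did not overlap for these 9 genes and for 65.1% of all genes. POLR2G (1.06 ± 0.16, limma adjusted p = 9.97e-06) and POLR2K (0.53 ± 0.22, 0.0419) were higher in XG1, beside 28.3% of all genes. POLR2G was at 443, 505 and 451 FPKM in XG1, against 263, 265 and 158 FPKM in AMO1, with no overlap. POLR2F was the lowest in XG1 relative to AMO1, at 57.6, 47.0 and 49.2 FPKM in XG1, against 122, 120.3 and 84.8 FPKM in AMO1 (-1.06 ± 0.14, limma adjusted p = 2.19e-06). POLR2C (-0.84 ± 0.17), POLR2E (-0.79 ± 0.16), POLR2D (-0.70 ± 0.20), POLR2A (-0.59 ± 0.18), POLR2H (-0.49 ± 0.12) and POLR2I (-0.35 ± 0.14) were also lower in XG1, and 34.4% of all genes were. POLR2B did not differ beyond its spread (0.00024 ± 0.17, 95% interval -0.35 to 0.35), although with quantile normalization its difference passed the threshold (0.29, limma adjusted p = 0.0402).

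Both members of the stalk were thus called in opposite directions, POLR2G higher and POLR2D lower in XG1. The differences of 44 spike-in RNAs, XG1 minus AMO1, had a median of -0.11 log2 and an SD of 0.552 log2. That SD is as large as several of the differences of subunit genes between the lines and is not in their SE. The POLR2K call was lost without replicate 3 of AMO1 in DMSO (0.45, limma adjusted p = 0.127), replicate 2 of that group (0.0856), or replicate 1 (0.142) or 2 (0.0887) of XG1 in DMSO, and with no filter on low values (0.101). The POLR2I call was lost with no filter (limma adjusted p = 0.0607), median centring (0.129), spike-in scaling (0.0533) and only the compared groups in the fit (0.131). It was also lost without replicate 1, 2 or 3 of XG1 in DMSO (limma adjusted p = 0.0616, 0.0652 and 0.0987) and without replicate 1 or 2 of AMO1 in DMSO (0.109 and 0.151). After quantile normalization POLR2I turned to 0.12 and POLR2H was at -0.035, neither called. POLR2E lies on the genome beside ARHGAP45 and overlaps it in RefSeq, and POLR2C likewise DOK4. ARHGAP45, under its older symbol HMHA1, had a median of 4.42 FPKM in XG1 and 38.1 FPKM in AMO1, and DOK4 0.723 and 4.08 FPKM. POLR2B overlaps IGFBP7, with medians of 12.1 FPKM in XG1 and 14.9 FPKM in AMO1. Over the AMO1 libraries IGFBP7 ran from 4.08 to 21.0 FPKM, and whether its reads entered the POLR2B fall at 1000 nM was not tested. No source used here gives the strand setting of the counting, so reads of such pairs may not be told apart.

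**Figure D4:**
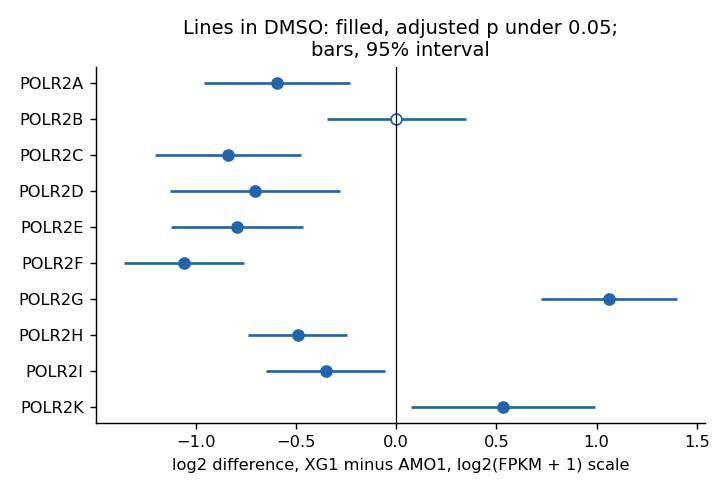
Log2 difference between XG1 and AMO1 in DMSO on the log2(FPKM + 1) scale (horizontal axis) for each subunit gene. Points are limma estimates, filled where the adjusted p was under 0.05, and bars are 95% intervals. POLR2G and POLR2K lie to the right, POLR2B at 0 and the others to the left.

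Over the 6 groups the mean POLR2A level had the order XG1 DMSO (37.6 ± 2.16 FPKM, SD, n = 3), AMO1 DMSO (58.9 ± 15.9), XG1 1000 nM (69.2 ± 3.92), XG1 100 nM (71.2 ± 6.53), AMO1 1000 nM (175 ± 22.7) and AMO1 100 nM (181 ± 27.1). The 2 doses within a line overlapped in this order, and AMO1 DMSO overlapped treated XG1. For POLR2H the order was XG1 1000 nM (72.4 ± 5.26), XG1 100 nM (80.8 ± 2.28), AMO1 1000 nM (106 ± 6.16), XG1 DMSO (123 ± 9.71), AMO1 100 nM (146 ± 4.53) and AMO1 DMSO (173 ± 11.9), with no overlap between neighbours.

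Of the 5 tested genes whose 4 changes against DMSO were nearest to those of POLR2A by root mean square difference, IER3, an immediate early gene, was the nearest (0.139 log2). It changed by 0.75 and 0.95 in XG1 and by 1.41 and 1.58 in AMO1 at 100 and 1000 nM. The others were BDNF-AS (0.161), UCN (0.313), LAMB2P1 (0.364) and PRDM2 (0.372). These 4 changes share DMSO libraries within a line.

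The other genes of RNA polymerase II and its sister enzymes were counted from lists. Of 6 further POLR2 genes, POLR2J4 was too low to test, and 0 of the other 5 were called against DMSO at either dose in limma, with 1 at an unadjusted p under 0.05 at 100 nM in each line (POLR2J3 in XG1 and POLR2J in AMO1). POLR2L, the fifth shared subunit, was at 208 ± 14.2 and 232 ± 19.4 FPKM with 100 and 1000 nM in XG1, against 223 ± 25.7 FPKM in DMSO (SD, n = 3 each). POLR2J, the partner of the POLR2C subunit, changed by 0.15 ± 0.15 at 1000 nM in XG1 and 0.18 ± 0.15 in AMO1. POLR2J2 and POLR2J3 are near-identical copies of POLR2J, so their levels are uncertain.

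Several subunits particular to RNA polymerases I and III fell with YKL. At 1000 nM, 5 of 8 RNA polymerase I genes were called lower in XG1, beside 15.7% of all genes, and 5 of 8 in AMO1, beside 15.4%, with medians of -0.63 and -0.57. Of 11 RNA polymerase III genes, 9 were called lower in XG1 and 8 in AMO1, with medians of -0.66 and -0.77. In both lists 0 genes were called higher, and changes of single genes reached 0.22 in XG1. At 100 nM, 3 of 8 RNA polymerase I and 3 of 11 RNA polymerase III genes were called lower in XG1, beside 3.98% of all genes, and 1 of 8 and 2 of 11 in AMO1, beside 1.76%. POLR1C and POLR1D of the first list serve both enzymes.

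Of the RNA polymerase I genes at 1000 nM, CD3EAP, an RNA polymerase I subunit, changed most in XG1, at 3.44 FPKM with 1000 nM, against 9.21 FPKM in DMSO (-1.21 ± 0.22), followed by POLR1D (-0.97 ± 0.17) and the largest subunit POLR1A (-0.78 ± 0.18). In AMO1 the second largest subunit POLR1B changed most on the log2(FPKM + 1) scale, at 3.82 FPKM, against 9.69 FPKM in DMSO (-1.15 ± 0.21), followed by POLR1A (-1.0 ± 0.18) and CD3EAP (-0.96 ± 0.22). POLR1A was low, at 0.865 FPKM, against 2.22 FPKM in DMSO in XG1, and at 0.916 FPKM, against 2.82 FPKM in AMO1. At such levels the added 1 FPKM shrinks the change, so the place of POLR1A in both orders depends on it. The same limit holds for other low genes named below, such as POLR3B and POLR3G, SCAF8 in AMO1 and POLR2J2 in XG1. Of the RNA polymerase III genes in XG1, the largest falls were those of POLR3G, at 3.21 FPKM, against 8.29 FPKM in DMSO (-1.18 ± 0.20), of the second largest subunit POLR3B (-1.11 ± 0.21) and of POLR3E (-1.05 ± 0.21). In AMO1 they were those of POLR3B, at 2.55 FPKM, against 8.39 FPKM in DMSO (-1.37 ± 0.21), POLR3G (-1.24 ± 0.20) and POLR3C (-1.05 ± 0.16). The genes called at 100 nM in XG1 were CD3EAP (-0.99), POLR1D (-0.74), POLR1C (-0.64), POLR3G (-0.93), POLR3D (-0.90) and POLR3C (-0.55). In AMO1 they were POLR1A (-0.76), POLR3B (-0.87) and POLR3C (-0.74). The medians of the 10 RNA polymerase II genes at 1000 nM were -0.17 and -0.15.

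**Figure D5:**
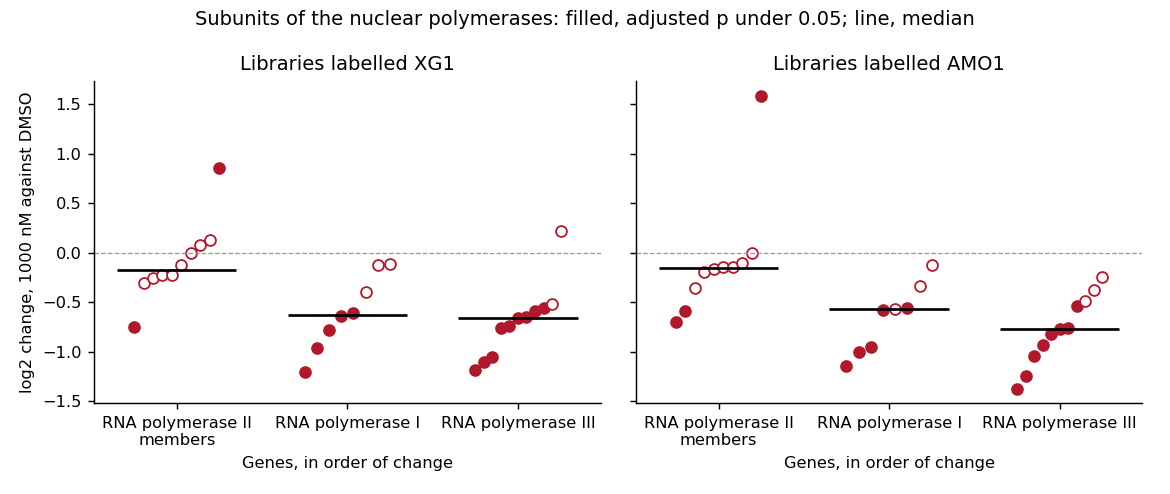
Log2 change at 1000 nM against DMSO on the log2(FPKM + 1) scale (vertical axes) for the 10 RNA polymerase II subunit genes, 8 RNA polymerase I genes and 11 RNA polymerase III genes, each sorted by change, in XG1 (left) and AMO1 (right). Points are genes, filled where the limma adjusted p was under 0.05, and lines are list medians. POLR2A is the 1 filled point above 0 in each panel.

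Factors that build or act on the enzyme were counted in the same way, beside 15.7% of all genes called lower at 1000 nM in XG1 and 15.4% in AMO1. Of 12 assembly and import genes, 2 fell at 1000 nM in XG1 and 3 in AMO1. These were URI1, a scaffold of the assembly chaperone (-0.55 ± 0.14 in XG1 and -0.61 ± 0.14 in AMO1), RUVBL1, an ATPase of the same chaperone (-0.41 ± 0.14 and -0.50 ± 0.14), and in AMO1 GPN2, a GTPase (-0.72 ± 0.21). Of 12 tested genes for CTD phosphatases and CTD binders, 4 fell in XG1 and 2 in AMO1. The CTD binder SCAF8 was called in both (-0.87 ± 0.21 and -0.63 ± 0.21), the phosphatase gene CTDSP2 (-0.67 ± 0.20) and the termination factor PCF11 (-0.66 ± 0.18) in XG1, and the CTD binder RPRD1A in AMO1 (-0.75 ± 0.18). CTDSPL was too low to test.

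Of 21 pausing and elongation factors, 1 rose and 3 fell in each line at 1000 nM. The riser was ELL, an elongation factor, at 13.0 FPKM with 1000 nM, against 7.83 FPKM in DMSO in XG1 (0.66 ± 0.19) and at 21.6 FPKM, against 14.1 FPKM in AMO1 (0.60 ± 0.19). NELFA, a subunit of the pausing factor NELF (-0.80 ± 0.19 and -0.85 ± 0.19), and LEO1, a subunit of the PAF1 complex (-0.61 ± 0.19 and -0.63 ± 0.19), fell in both lines, PAF1 itself in XG1 (-0.69 ± 0.18) and GTF2F2, a subunit of TFIIF, in AMO1 (-0.64 ± 0.18). The list medians at 1000 nM were -0.35 and -0.30 for assembly, -0.37 and -0.24 for CTD genes and -0.26 and -0.15 for elongation, beside -0.19 and -0.18 over all genes. At 100 nM the genes called in these 3 lists were SCAF8 (-0.69), NELFA (-0.77) and LEO1 (-0.62) in XG1 and LEO1 (-0.76) in AMO1. Beside them, 3.98% of all genes were called lower at 100 nM in XG1 and 1.76% in AMO1.

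The same lists were counted between the lines in DMSO, beside 28.3% of all genes called higher in XG1 and 34.4% called lower. The tested genes numbered 8 for RNA polymerase I, 11 for RNA polymerase III, 12 each for assembly and the CTD, and 21 for elongation. The SD of 0.552 log2 among the line differences of the spike-ins is not in the SE of these values either. Of the 5 further POLR2 genes tested, POLR2M was higher in XG1 (0.83 ± 0.23) and 4 were lower. Of these 4, POLR2J2 (-2.50 ± 0.25), POLR2J3 (-2.45 ± 0.23) and POLR2L (-1.05 ± 0.16) differed most. Of the RNA polymerase I genes, ZNRD1 (1.54) and POLR1C (0.49) were higher and TWISTNB (-1.80) and CD3EAP (-0.90) lower in XG1. Of the RNA polymerase III genes, POLR3E was higher (0.85) and 5 were lower, led by POLR3GL (-2.54), POLR3C (-1.59) and POLR3F (-1.32). Of the assembly genes, GPN3 was higher (0.77) and SLC7A6OS (-1.30), GPN1 (-0.84) and RUVBL1 (-0.60) were lower. Of the CTD genes, SCAF8 (0.84), CTDSPL2 (0.82) and RPRD1A (0.73) were higher and 6 were lower, led by CTDSP1 (-1.32), CTDP1 (-1.07) and PHRF1 (-1.01). Of the elongation factors, TCEA1 (0.67), CDC73 (0.59) and LEO1 (0.46) were higher and 11 were lower, led by ELL2 (-2.45), TCEA2 (-1.24) and SUPT6H (-1.17).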

How the data were processed

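RNA from 2 lines and 3 treatments was measured in 18 QuantSeq 3′ libraries, per the labels' protocols, and the labels gave groups and replicate numbers. HISAT2, Cuffnorm and the build hg19 are named in the submitters' processing notes, with no role or order. Not given in the sources used here were versions, annotation, read counts and strand setting. Deposited per-gene values are FPKM, read from Cuffnorm being named there, since the headers state no unit. Differences in depth or transcript length used by the authors cannot be checked from them. The 12204 genes whose mean reached 1 FPKM in any group were tested with limma 3.58.1 (R 4.3.3, statmod 1.5.0, trend and robust) on log2(FPKM + 1), a pseudocount of 1, with 1 mean per group over 18 libraries, two-sided, in 9 comparisons. Alternatives were pseudocounts of 0.1 and 5, a minimum mean of 5 FPKM or none, median centring, quantile normalization, spike-in scaling (92 spike-ins, 44 of them usable), only the compared groups, a replicate block, and leaving out each library. On simulated data for 12204 genes of the XG1 comparison of 100 nM with DMSO, 54 of 100 changes of 1 log2 unit and 5 of 100 of 0.5 were recovered, with 1 false call. The simulation gave each gene the same mean in all groups with independent normal noise, and changed only these genes. It held no shift shared by the genes of a library, so recovery and false calls in the real data may differ. The subunit genes and lists were chosen with earlier results of these data known. All 10 subunit genes are named, with up to 3 called genes per direction from each list by size of change, and the 5 nearest to POLR2A. Promoter windows are RefSeq sequence of GRCh38.p14 without the transcribed bases, and no coordinates of the files' build are given.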

Additional observations from a re-analysis of the deposited data

How the results depend on the processing

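The rise of POLR2A and the fall of POLR2H kept their direction in each of the 27 other settings, and kept their calls in all of them except POLR2A at 100 nM in AMO1 with only the compared groups in the fit (1.63, limma adjusted p = 0.0752, 0 subunit genes and 6 of all genes called there instead of 1 and 268). Only the pseudocounts, the scalings and leaving out a library of the compared groups can move a log2 change. The other settings alter only its p-value, so a kept direction there was fixed in advance. Counts over all genes moved more. At 100 nM in XG1 the 807 calls became 1499 with median centring, 1878 with quantile normalization and 486 with a replicate block, and 399 to 1188 with a library left out. At 1000 nM in XG1 the 2152 became 1197 with only the compared groups and 1110 to 2641 with a library left out. At 100 nM in AMO1 the 268 became 137 and 453 with pseudocounts of 0.1 and 5, 477 with centring, 459 with quantile normalization, 123 with the block and 101 to 980 with a library left out, the most without DMSO replicate 3. At 1000 nM in AMO1 the 2091 became 1185 to 3049 with a library left out. Between doses the 17 calls in XG1 became 60 with a pseudocount of 5, 31 with the higher filter, 0 with centring, 10 with quantile normalization, 32 with spike-in scaling, 2 with only the compared groups, 4 with the block and 1 to 311 with a library left out. The 22 in AMO1 became 13, 37, 13 and 4 with pseudocounts of 0.1 and 5, only the compared groups and the block, and 2 to 118 with a library left out, where 0 to 1 subunit genes were called. For the difference of responses at 100 nM, 19 calls became 6 and 67 with the pseudocounts, 4 with the higher filter, 10 with none, 66 with centring, 76 with quantile normalization, 12 with spike-in scaling, 1 with the block and 3 to 36 with a library left out. At 1000 nM, 83 became 27 and 201 with the pseudocounts, 191 with centring, 216 with quantile normalization, 54 with only the compared groups, 38 with the block and 42 to 166 with a library left out.

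Signs turned for genes that were not called, chiefly with scalings that remove the shared shift. With centring, XG1 at 1000 nM had POLR2B at 0.039, POLR2C at 0.0066, POLR2F at 0.13, POLR2I at 0.26 and POLR2K at 0.036. AMO1 had POLR2B at 0.043 and POLR2C at 0.057 at 100 nM, and POLR2C at 0.19, POLR2D at 0.13, POLR2E at 0.15, POLR2F at 0.15, POLR2G at 0.10 and POLR2I at 0.29 at 1000 nM. POLR2A between doses was at 0.21 in XG1 and 0.078 in AMO1. With quantile normalization, XG1 had POLR2E at 0.091 and POLR2F at 0.031 at 100 nM, and POLR2B at 0.086, POLR2C at 0.072, POLR2D at 0.0029, POLR2F at 0.19, POLR2I at 0.24 and POLR2K at 0.090 at 1000 nM. AMO1 at 1000 nM had POLR2C at 0.14, POLR2D at 0.11, POLR2E at 0.041, POLR2F at 0.094 and POLR2I at 0.18. POLR2A between doses was at 0.15 in XG1 and 0.16 in AMO1, and POLR2I between the lines was at 0.12. Spike-in scaling gave POLR2I 0.013 at 1000 nM in XG1, and a pseudocount of 5 gave POLR2B -0.00049 between the lines. With a library left out, XG1 values ran from -0.12 to 0.011 (POLR2E) and -0.025 to 0.057 (POLR2I) at 100 nM, and from -0.081 to 0.087 (POLR2I) and -0.42 to 0.0012 (POLR2K) at 1000 nM. AMO1 values ran from -0.074 to 0.17 (POLR2E), -0.090 to 0.17 (POLR2F), -0.076 to 0.29 (POLR2G), -0.28 to 0.019 (POLR2B) and -0.26 to 0.037 (POLR2C) at 100 nM, and from -0.13 to 0.085 (POLR2I) and -0.24 to 0.018 (POLR2C) at 1000 nM. POLR2A between doses ran from -0.10 to 0.028 in XG1 and -0.16 to 0.069 in AMO1, and POLR2B between the lines from -0.14 to 0.079. The cause of these shifts was not tested. The values for single subunit genes not given in the text, 32 in comparisons between doses and of responses, were computed under the same settings and are not listed here.

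Same-numbered replicates did not deviate together (correlations of -0.052 to 0.032 in XG1 and -0.12 to 0.091 in AMO1), and the main fit used no pairing. Correlations near 0 cannot show whether same-numbered libraries were cultured or prepared together. With the replicate block the POLR2B call in AMO1 at 1000 nM was lost (-0.59, limma adjusted p = 0.0536) and the calls of POLR2A and POLR2H were kept. Of calls between the lines, those of POLR2I and POLR2K were the least stable, POLR2I being called in 17 and POLR2K in 22 of the 27 settings. Without read counts, depth could not be used to set what was detectable.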
